A study of Mus musculus with 4 samples.

Results

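Ribosome footprints at translation initiation sites were compared between Ltn1 KO and WT neurons in 4 libraries, which are all 4 libraries of the series. The cells were primary cortical neurons cultured from mice, and every culture received harringtonine at 5 µg/ml for 3 min and an RNAi. WT SC and KO SC form one pair of libraries, and WT TTC and KO TTC form the other. The titles give Ttc3 RNAi for the libraries coded SC and control (scrambled) RNAi for those coded TTC, whereas the code letters read the other way round. Since Ltn1 KO was compared with WT within each code, an exchange of these labels would leave every value given here as it is. Each condition had 1 library, so each genotype had 2, and neither the deleted part of Ltn1 nor whether the cultures came from separate animals is given in the sources used here. P-values therefore measure the spread between these libraries, which may be technical. A genotype difference that depends on the RNAi also counts as spread in the tests of genotype. The study reports such a dependence, with start-site footprints of Ltn1 KO neurons restored by knockdown of TTC3.

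LTN1, also called listerin, is a ubiquitin ligase of ribosome-associated quality control (RQC). It acts on large ribosomal subunits that still hold an unfinished nascent chain after a stall and marks the chain for the proteasome, together with NEMF, which binds the same subunits. Harringtonine lets elongating ribosomes run off and holds initiating ribosomes on the start codon, so that the footprints counted there follow the rate of initiation and the amount of mRNA together. No RNA libraries were used here, and the 2 contributions cannot be told apart. In bulk cultures, fewer cells of a type and less RNA per cell cannot be told apart either. The study made these libraries to ask how initiation differs in neurons without LTN1 and after TTC3 KD.

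The values are reads per 1000000 reads of the whole library (RPM), for 6352 transcripts. Libraries held 1460425 to 3655827 reads, of which 6.06% to 6.85% lay on the listed start sites, and the Ltn1 KO library was the deeper one in both pairs. One read was worth 0.274 to 0.685 RPM. The comparison covers the 2314 transcripts whose mean over the libraries reached 5 RPM, and a log2 difference is log2((KO + 1)/(WT + 1)) of RPM within a pair, which understates the change of low transcripts. Where 4 values are listed without names, their order is that of the libraries above: WT and KO of the SC pair, then WT and KO of the TTC pair. Over all transcripts compared, the median log2 difference was -0.11 (SC) and -0.05 (TTC). All 24 neuronal lineage markers were listed, with summed levels of 2319, 2535, 2332 and 2466 RPM. Tubb3, a neuronal β-tubulin, alone gave 1043 to 1278 RPM. Of markers of other cells, 17 of 26 for astrocytes and radial glia summed to 556 to 744 RPM, 13 of 18 for oligodendrocytes to 24.3 to 128 RPM, 5 of 24 for fibroblasts, endothelium and mural cells to 5.47 to 21.9 RPM, and 1 of 17 for microglia to 0 to 1.43 RPM. No Y-linked transcript of 4 was listed.

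The transcript of Ltn1 itself (chr16:87376651-87432619 in GRCm38) lay just under the level filter. In the SC pair its start site had 10 reads (4.77 RPM) in WT and 37 reads (13.8 RPM) in KO, and in the TTC pair 2 reads (1.37 RPM) in WT and 0 reads in KO. The SC pair was thus higher and the TTC pair lower in the library labelled KO. The KO libraries also differed from each other by more than counting error. Their exact Poisson intervals were 9.75 to 19.1 RPM in KO SC and 0 to 1.01 RPM in KO TTC. A start site outside the deleted part would hold footprints in a knockout as well, but whether it lies outside was not tested. These reads therefore do not check the genotype, and why the KO libraries differ was not tested. Ttc3, the target of the RNAi, had 3, 2, 0 and 0 reads in the same order, too few to check which libraries received it. Among 7 tested transcripts that start within 5 Mb of Ltn1, 0 were past 1.5-fold lower and 0 past 1.5-fold higher in both pairs; Sod1, the cytosolic superoxide dismutase, came nearest, with log2 differences of -0.44 and -0.65.

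In RPM of the whole library, lower footprint levels in Ltn1 KO were more frequent than higher ones. Lower in both pairs were, among others, Surf4 and Marchf6 of the endoplasmic reticulum, the creatine kinase Ckb, the synaptic adhesion protein Nlgn2 and the β-tubulin Tubb4b, and higher in both were the fission GTPase Dnm1l and the proteasome subunit Psmd13. In the SC pair 456 transcripts were at least 1.5-fold lower (19.7% of those tested) and 238 higher (10.3%). The TTC pair had 369 lower (15.9%) and 329 higher (14.2%). Both pairs were at least 1.5-fold lower for 118 transcripts (5.1%) and at least 1.5-fold higher for 43 (1.86%). In 79 transcripts (3.41%) the pairs passed this fold in opposite directions, 49 of them lower in the SC pair (2.12%) and 30 lower in the TTC pair (1.3%). The 118 make up 25.9% of the SC list and 32.0% of the TTC list, and the 43 make up 18.1% and 13.1%. Just inside the 1.5-fold limit lay Nedd4 (log2 differences -0.59 and -0.83) and Pik3r3 (1.12 and 0.61), and just outside it Acap2 (-0.58 and -0.67) and Rwdd2a (0.58 and 0.61). At 2-fold the counts were 21 lower, 6 higher and 11 opposite, or 0.908%, 0.259% and 0.475%.

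The excess of lower over higher transcripts depended on the scaling. Rescaling each library to an equal sum over the listed sites gave 97 transcripts lower and 60 higher in both pairs. Factors by the median of ratios gave 85 lower and 74 higher. All 85 were among the 118, and all 43 were among the 74. Median-of-ratios factors moved the median of all transcripts to 0.02 (SC) and 0.0084 (TTC).

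**Figure D1:**
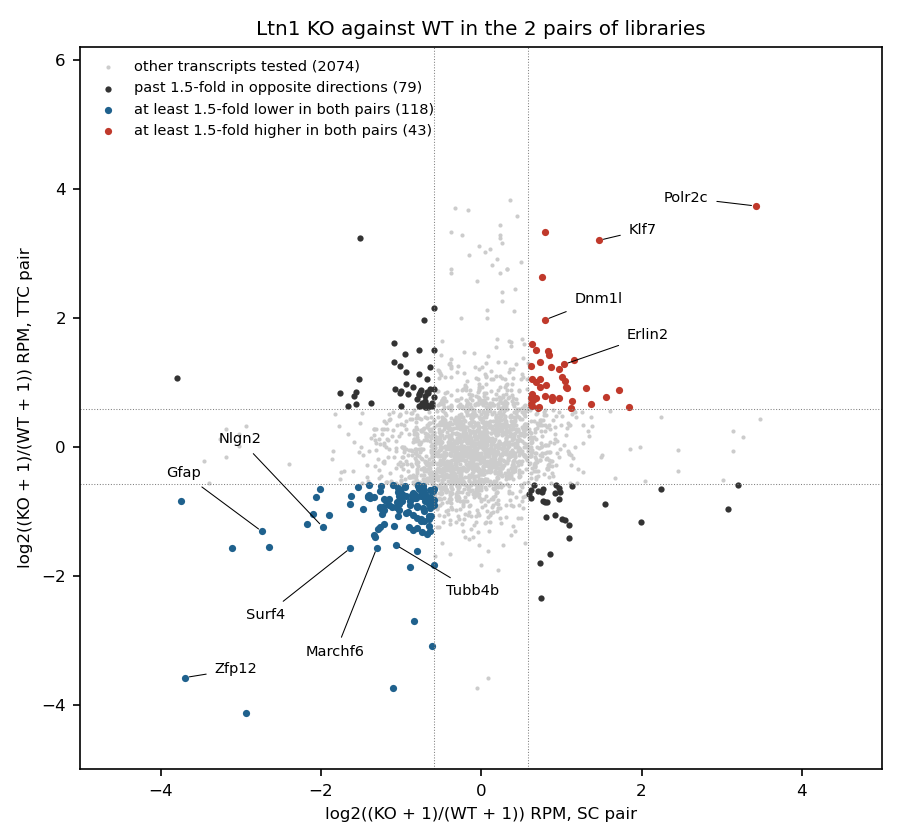
Log2 difference of Ltn1 KO from WT for the SC pair (horizontal) and the TTC pair (vertical) for 2314 transcripts, with dotted lines at 1.5-fold. The 118 transcripts lower in both pairs lie at lower left and the 43 higher in both at upper right, and 79 lie past the lines in opposite directions.

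The pairs share no library, and their differences ran together weakly, with a Pearson correlation across transcripts of 0.19 (Spearman 0.19, 2314 transcripts, which are not independent replicates and share the depth of 4 libraries). The correlation was 0.27 at a mean of 10 RPM or more, 0.33 at 20 RPM or more and 0.43 for the 219 transcripts at 50 RPM or more. Transcripts past 1.5-fold in opposite directions made up 6.17% of those at 5 to 10 RPM, 2.34% at 10 to 20 RPM, 1.01% at 20 to 50 RPM and 0 of 219 above. The share lower in both pairs was 5.85%, 5.62%, 4.43% and 1.83% in the same ranges. In the lowest range the shallowest library held a median of 11 reads a transcript, so that counting error alone is large there.

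**Figure D2:**
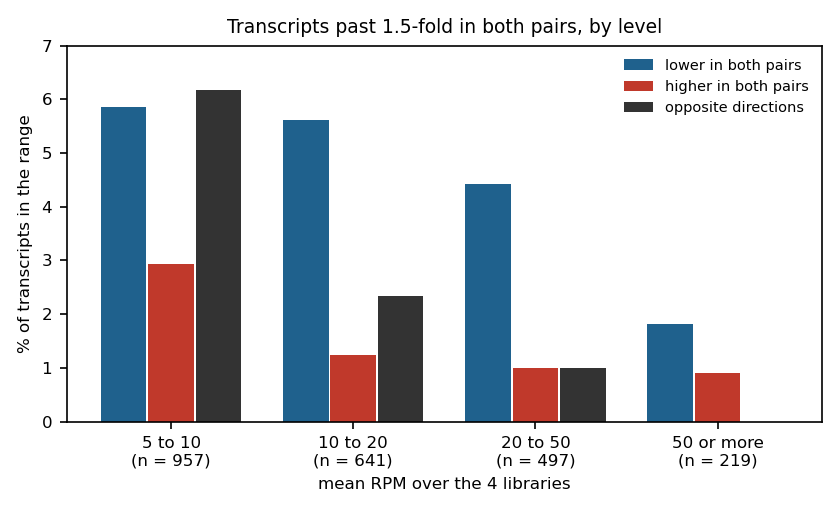
Share of transcripts, in % of those in each range of mean RPM (horizontal, with n), that were past 1.5-fold lower in both pairs, higher in both pairs or opposite. Opposite transcripts go from 6.17% to 0 with level, while those lower in both pairs go from 5.85% to 1.83%.

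No transcript passed an adjusted p of 0.05 for genotype in limma with the code as a block. The smallest adjusted p was 0.27, and the median standard error (SE) of a log2 difference was 0.32. Limma's SE and p are moderated, which means that spread is borrowed from other transcripts at a like level. The median of the total degrees of freedom was thus 9.07. At an unadjusted p under 0.05, limma gave 167 transcripts lower (7.22%) and 86 higher (3.72%). With median-of-ratios factors limma gave 0 at an adjusted p of 0.05, and this unadjusted split turned to 105 lower and 134 higher. edgeR gave 0 at an adjusted p of 0.05, with 141 lower and 58 higher unadjusted by library totals and 85 lower and 112 higher with TMM, and DESeq2 gave 1, Tubb4b, with 29 lower and 32 higher unadjusted. An exact binomial test on reads compares 2 libraries and holds counting error only. At an adjusted p of 0.05 the SC pair had 175 transcripts called lower (7.56%) and 70 called higher (3.03%). The TTC pair had 150 called lower (6.48%) and 108 called higher (4.67%). By this test 36 transcripts were lower in both pairs (1.56%), 15 were higher in both (0.648%) and 4 were opposite (0.173%). This split was 29 to 20 after rescaling to the same sum and 20 to 30 with median-of-ratios factors.

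Among transcripts at a mean of 10 RPM or more, ranked by the smaller of their differences in the 2 pairs, the first 12 lower and the first 12 higher in both pairs were taken to describe, of which 11 and 10 are named here. Since they were chosen for these differences, their values are a description. Among the lower ones, limma's unadjusted p ran from 0.00014 to 0.013 and its adjusted p from 0.27 to 0.40, and the exact test called 10 of 12 in both pairs. Among the higher ones the unadjusted p ran from 0.0011 to 0.031 and the adjusted p from 0.35 to 0.45, and the exact test called 2 of 12. The choice by both pairs favours genotypes that do not overlap, so a lack of overlap is no further support. Both Ltn1 KO libraries lay below both WT libraries for 10 of the 12 and for 100 of all 118 lower in both pairs. They lay above them for 11 of the other 12 and for 37 of all 43 higher in both. Over all transcripts tested, without such a choice, the shares were 20.4% and 13.1%.

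The starts of 6 of these mRNAs are shown because the first bases of the 5′ leader tell apart the mRNAs with a terminal oligopyrimidine (TOP), whose initiation depends on mTORC1. Lower case gives 10 bases before an annotated mRNA start and capitals the first 20 bases from it, in RefSeq's GRCm38.p6. For Marchf6 and Dnm1l this start lies inside the gene, whose own start on the minus strand is annotated at 31531082 and 16359038. The 6 were chosen after their values were seen. The first 3 were lower in Ltn1 KO and the others higher.
Tubb4b, chr2:25224683-25224712, minus strand: tgctgacgagGGCGGGTCATAAGAGGTATA
Gde1, chr7:118705719-118705748, minus strand: tgctcccagcGGAGGGTTCCGGCTGTGGCC
Marchf6, chr15:31531018-31531047, minus strand: gcgcgcccctCCCCCCTCCCCGGCGCTCGC
Dnm1l, chr16:16359012-16359041, minus strand: cgcccacctcTGTCGTGGCGCGTGGCCTGC
Gpx1, chr9:108339070-108339099, plus strand: acaggagctaGACCAGACCCGCCCTAGGCA
Nfe2l1, chr11:96829949-96829978, minus strand: gcgggtttccGAGTGCAGTGGAAGGAGGGG

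Of these 6, Marchf6 alone begins with C and at least 4 more pyrimidines, a TOP-like start. Such a start was found in 1 of 95 transcripts lower in both pairs that had a promoter entry, in 0 of 34 higher in both pairs, in 48 of 1815 transcripts tested (2.64%), in 4 of 21 cytosolic ribosomal proteins (19.05%) and in 823 of 32851 promoters of the RefSeq table (2.51%). The letters TATAAA, searched on the gene's own strand in the 50 bases before the start, were present in 2 of 95, 0 of 34 and 26 of 1815 (1.43%), against 2.63% of all promoters. The median GC content of the 300 bases around the start was 62.3% for transcripts lower in both pairs, 60.7% for those higher and 62.0% for all tested. A match of letters is no evidence of a functional element, and an annotated start need not be the start used in neurons.

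Tubb4b encodes a β-tubulin found in most tissues. Its start site had 75.4 RPM in WT and 35.5 RPM in Ltn1 KO neurons of the SC pair, and 172 and 59.1 RPM in those of the TTC pair. Both Ltn1 KO libraries lay below both WT libraries, and the mean log2 difference was -1.29 (SE 0.21). β-Tubulin genes have near-identical coding sequences, and how reads that match several of them were counted is not given in the sources used here, so the level of Tubb4b alone is uncertain.

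Gde1, a glycerophosphodiester phosphodiesterase of membranes, had 41.0 RPM in WT and 16.5 RPM in Ltn1 KO neurons of the SC pair, and 72.6 and 30.1 RPM in those of the TTC pair. Its log2 differences were close in the pairs, -1.27 and -1.24, with a moderated SE of 0.23 for their mean. Ckb, the brain form of creatine kinase, had 57.2, 23.2, 80.8 and 41.3 RPM (log2 differences -1.27 and -0.95). Hspa9, the main chaperone of the mitochondrial matrix, had 39.1, 13.5, 59.6 and 30.1 RPM (-1.47 and -0.96). Ndufb8, a subunit of respiratory complex I, had 24.8, 11.6, 35.6 and 16.4 RPM (-1.03 and -1.07). For all of these the Ltn1 KO libraries were below both WT libraries.

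Marchf6, a ubiquitin ligase of the endoplasmic reticulum membrane, had 31.0 RPM in WT and 11.97 RPM in Ltn1 KO neurons of the SC pair, and 41.8 and 13.4 RPM in those of the TTC pair, with no overlap of the genotypes. Surf4, a receptor that loads cargo for export from the endoplasmic reticulum, had 9.06, 2.24, 23.97 and 7.39 RPM, again without overlap. Cope, a subunit of the COPI coat, and the cargo receptors Tmed4 and Tmed9 were also at least 1.5-fold lower in both pairs, with log2 differences of -0.90 and -1.24, -0.74 and -1.32, and -0.63 and -0.82. Another COPI subunit, Copb1, was past 1.5-fold higher in both pairs, with 0.80 and 0.96. These last 4 were picked after their values were seen.

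Prkaca encodes a catalytic subunit of protein kinase A, whose subunits other than this one and Prkar2a are not described here. Prkaca had 13.4 RPM in WT and 4.86 RPM in Ltn1 KO neurons of the SC pair, and 23.97 and 9.30 RPM in those of the TTC pair, and the log2 differences were -1.29 and -1.28. The regulatory subunit Prkar2a, singled out after its values were seen, had 6.68, 2.24, 12.3 and 5.47 RPM. Fbxl16, an F-box protein, had 10.97, 4.12, 19.2 and 9.57 RPM without overlap. Rnf157, a ubiquitin ligase, had 9.54, 4.49, 21.2 and 9.85 RPM, and here KO TTC lay above WT SC.

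Gfap, the intermediate filament of astrocytes, was among the lower transcripts as well. It had 18.1 RPM in WT and 1.87 RPM in Ltn1 KO neurons of the SC pair, and 19.2 and 7.11 RPM in those of the TTC pair. The genotypes did not overlap, and the log2 differences were -2.74 and -1.31.

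Higher in both pairs was Dnm1l, the GTPase that constricts mitochondria at fission. It had 44.4 RPM in WT and 77.8 RPM in Ltn1 KO neurons of the SC pair, and 12.3 and 51.2 RPM in those of the TTC pair. Both Ltn1 KO libraries lay above both WT libraries, but WT TTC, with 18 reads, was far below WT SC, and the log2 differences were unequal, 0.80 and 1.97. Chchd2, a protein of the mitochondrial intermembrane space, had 15.7, 29.9, 15.7 and 26.5 RPM, and Gpx1, a glutathione peroxidase, 11.9, 20.6, 11.6 and 23.0 RPM. In both the WT libraries were nearly equal.

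Nfe2l1, the transcription factor that raises proteasome subunit genes when proteasomes fail, had 10.0 RPM in WT and 19.1 RPM in Ltn1 KO neurons of the SC pair, and 6.16 and 15.9 RPM in those of the TTC pair. Psmd13, a subunit of the proteasome lid, had 15.3, 24.3, 17.8 and 32.3 RPM. Ube2b, a ubiquitin-conjugating enzyme, had 9.54, 16.5, 6.85 and 15.3 RPM. Erlin2, which takes part in degradation at the endoplasmic reticulum, had 7.16, 15.7, 7.53 and 19.7 RPM and the largest smaller difference of the higher transcripts at a mean of 10 RPM or more. In all of these the genotypes did not overlap.

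Ssr4, a subunit of the translocon-associated protein complex, had 19.1, 29.9, 27.4 and 47.0 RPM. Csdc2, an RNA-binding protein with a cold-shock domain, had 8.59, 16.1, 7.53 and 23.0 RPM, and Rpa1, which binds single-stranded DNA, had 9.54, 15.3, 7.53 and 16.7 RPM. In Ssr4, Csdc2 and Rpa1 both Ltn1 KO libraries lay above both WT libraries.

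**Figure D3:**
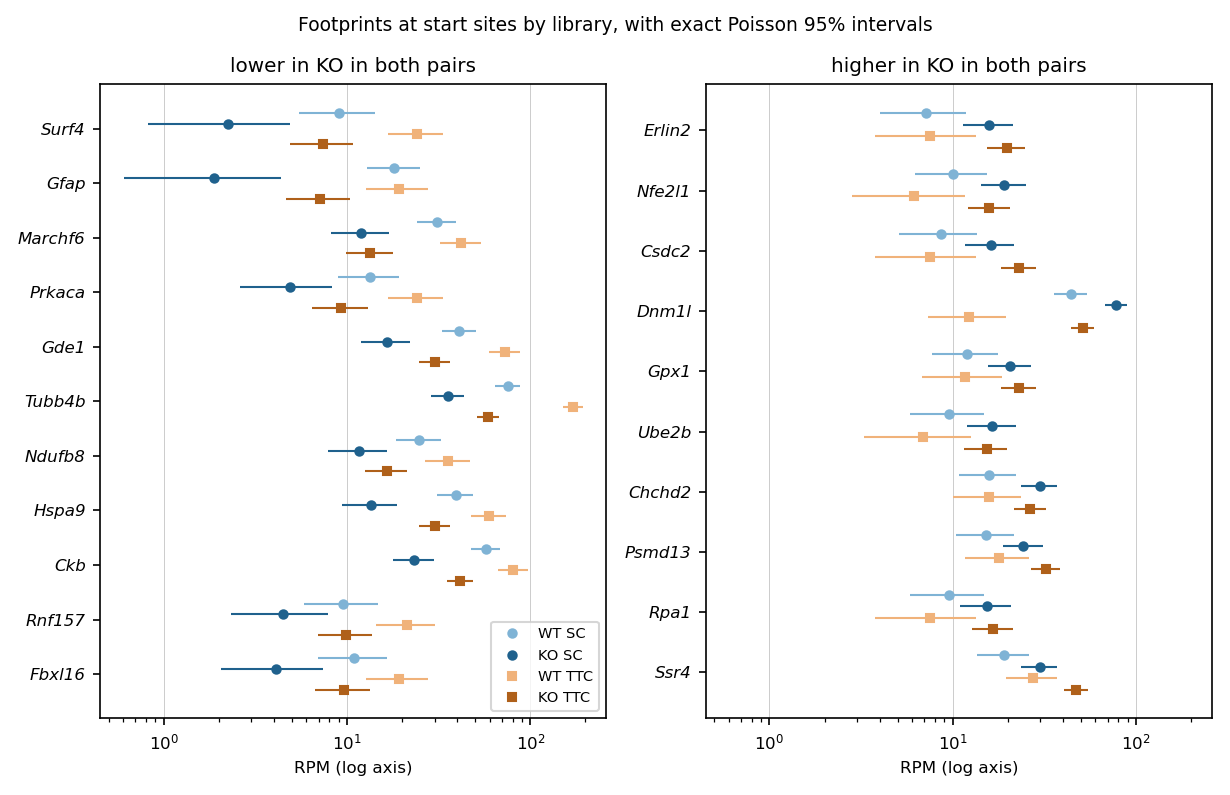
RPM at the start site (horizontal, log axis) in each library for 11 of the 12 lower and 10 of the 12 higher transcripts, with exact Poisson 95% intervals that cover counting error only; light symbols are WT and dark ones Ltn1 KO, circles the SC pair and squares the TTC pair. Within each pair the dark symbol lies to the left in the first panel and to the right in the second, as the choice of transcripts requires.

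Small differences in abundant transcripts passed the exact test in both pairs too. Gap43, a growth cone protein, had 262 RPM in WT and 349 RPM in Ltn1 KO neurons of the SC pair, and 283 and 412 RPM in those of the TTC pair. Calm2, a calmodulin gene, had 402, 485, 365 and 459 RPM, and Acat1, a mitochondrial thiolase, had 140, 239, 135 and 181 RPM. Lower were Atp1b1, a subunit of the sodium pump, at 545, 461, 724 and 518 RPM, and Uchl1, a neuronal deubiquitinase, at 100.2, 72.6, 205 and 144 RPM. In Gap43, Calm2 and Acat1 both Ltn1 KO libraries were above both WT libraries, and in Atp1b1 they were below them. The 4 transcripts called in opposite directions were Pip4k2c, a lipid kinase, Sar1b, the GTPase of COPII coats, Tubb2a, a β-tubulin, and Mdh1, the cytosolic malate dehydrogenase. Mdh1 had 61.1, 42.3, 55.5 and 89.2 RPM and Sar1b had 65.4, 40.4, 31.5 and 49.8 RPM, lower in KO SC and higher in KO TTC than in the WT library of the same code. These transcripts were named after their values were seen.

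Targets of the integrated stress response had the lowest median of the pathway lists with at least 5 transcripts tested, and it was low in both pairs. This response follows phosphorylation of eIF2α, after which ATF4 raises genes of amino acid supply. The study reports no change of eIF2α phosphorylation in its Ltn1 KO neurons. Of 23 listed targets, 9 were tested, and 8 of these were lower in both pairs and 0 higher, with medians of -0.45 and -0.58 in the SC and TTC pairs. Over all transcripts tested 34.9% were lower in both pairs at any size and 22.6% higher. Counts of list members below are to be read beside these shares, which several lists lie near. The 8 are Wars, Nars, Aars and Sars, which load tRNAs with tryptophan, asparagine, alanine and serine, Slc3a2 and Slc7a5, which form an amino acid exchanger, Psat1 of serine synthesis, and Ddit4, an inhibitor of mTORC1.

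Wars had 14.3 RPM in WT and 4.86 RPM in Ltn1 KO neurons of the SC pair, and 10.3 and 5.47 RPM in those of the TTC pair. Slc3a2 had 10.97, 5.61, 18.5 and 10.7 RPM, and its partner Slc7a5 had 21.9, 16.1, 35.6 and 21.9 RPM. Ddit4, the most abundant, had 56.3, 42.6, 80.1 and 49.0 RPM, so that in it both Ltn1 KO libraries lay below both WT libraries. Wars and Slc3a2 were past 1.5-fold in both pairs. Limma's unadjusted p was under 0.05 for 4 of the 9, all lower, and the adjusted p for 0. Over all transcripts tested 7.22% were lower at such an unadjusted p. Asns, asparagine synthetase, was the exception, at 6.68, 4.86, 4.11 and 4.38 RPM. Summed over all 23 listed targets, levels were 229 RPM in WT and 150 RPM in Ltn1 KO neurons of the SC pair, and 252 and 166 RPM in those of the TTC pair. The median of the list lay between -0.45 and -0.55 under every scaling, filter and pseudocount tried.

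**Figure D4:**
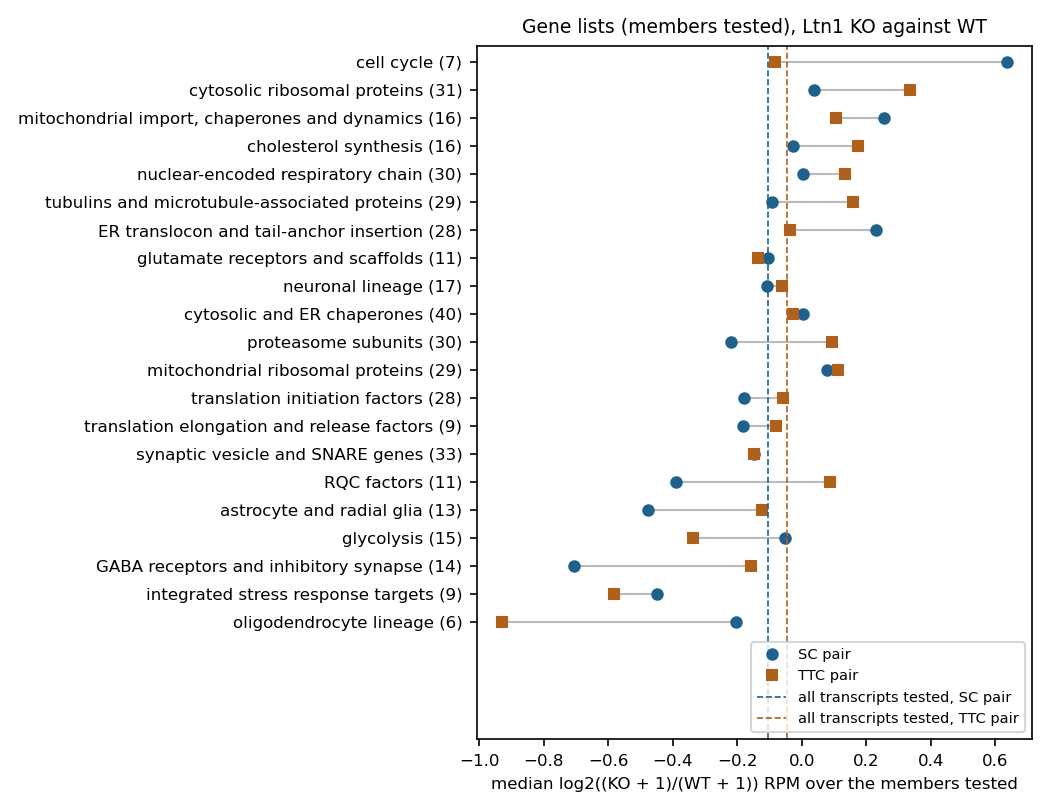
Median log2 difference of Ltn1 KO from WT over the tested members of each gene list (number in brackets), in the SC pair (circles) and the TTC pair (squares); dashed lines mark the medians of all transcripts tested. Targets of the integrated stress response are low in both pairs, while inhibitory synapse genes are low mainly in the SC pair.

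Enzymes of glycolysis were lower in both pairs in 10 of 15 and higher in 2, with medians of -0.05 and -0.34. Pkm, pyruvate kinase, had 37.2 RPM in WT and 20.9 RPM in Ltn1 KO neurons of the SC pair, and 83.5 and 43.2 RPM in those of the TTC pair, and was the 1 member past 1.5-fold in both pairs. Pgk1, phosphoglycerate kinase, had 21.0, 14.2, 29.4 and 16.4 RPM, and Aldoc, an aldolase that astrocytes also hold, had 115, 75.2, 142 and 104 RPM. The most abundant member, Aldoa, had 127, 131, 144 and 123 RPM and log2 differences of 0.04 and -0.24. The list's median stayed below 0 under every scaling tried.

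Cytosolic ribosomal proteins leaned the other way. Of 31 tested, 12 were higher in both pairs (22.6% of all transcripts tested) and 8 lower (34.9% of all), with medians of 0.04 and 0.34. An unadjusted limma p under 0.05 was found for 6, all higher, among them Rpl9, Rpl13, Rpl14, Rps3 and Rps7. Over all transcripts tested 3.72% were higher at such a p. Rpl13 had 43.4 RPM in WT and 71.8 RPM in Ltn1 KO neurons of the SC pair, and 41.1 and 62.6 RPM in those of the TTC pair. Rpl9 had 38.6, 83.0, 55.5 and 71.9 RPM, and Rps3 had 39.1, 67.0, 43.1 and 54.7 RPM. Rps13 went against these, at 55.3, 53.5, 56.8 and 28.2 RPM, and Rpl4 at 97.3, 85.7, 58.9 and 46.2 RPM. Ribosomal protein genes have many near-identical pseudogene copies, so single values are uncertain. Mitochondrial ribosomal proteins were split, with 7 of 29 lower in both pairs and 10 higher. Mrps11 was the 1 member past 1.5-fold in the same direction, at 17.2, 5.24, 6.85 and 4.10 RPM.

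Initiation factors held 12 of 28 lower in both pairs and 5 higher, with medians of -0.18 and -0.06, near those of all transcripts, and the median of the list turned to 0.02 with median-of-ratios factors. Eif4a1, a helicase of the cap-binding complex, had 22.4 RPM in WT and 11.97 RPM in Ltn1 KO neurons of the SC pair, and 31.5 and 21.3 RPM in those of the TTC pair. Eif4h, which stimulates that helicase, had 32.0, 46.0, 15.1 and 34.2 RPM, and Eif3f had 109, 146, 111 and 150.2 RPM. Eif4e, which binds the cap, had 9.54, 8.23, 10.96 and 8.21 RPM, and Pabpc1, which binds poly(A) tails, had 8.59, 5.61, 16.4 and 12.6 RPM, with adjusted p of 0.77 and 0.63 in limma. Eif4g1, the scaffold of the cap-binding complex, had 4, 8, 5 and 7 reads and was not tested. Elongation and release factors were lower in both pairs in 4 of 9 and higher in 1, and their median turned to 0.02 with median-of-ratios factors.

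Among RQC factors 4 of 11 tested were lower in both pairs and 3 higher, and 0 were past 1.5-fold in both. The counts at any size lie near the shares over all transcripts tested (34.9% and 22.6%). Tcf25, which adds ubiquitin linkage control to the RQC complex, had 63.9 RPM in WT and 77.1 RPM in Ltn1 KO neurons of the SC pair, and 50.7 and 72.8 RPM in those of the TTC pair. Vcp, the ATPase that extracts marked chains, had 26.2, 34.8, 47.2 and 24.6 RPM. Rack1, on the small subunit near collided ribosomes, had 23.9, 35.5, 47.9 and 55.0 RPM. Nemf was not tested for its low level and had 11, 16, 0 and 11 reads. Rps2, a ribosomal protein whose ubiquitination the study takes as a mark of inhibited initiation, had 22.9, 16.8, 16.4 and 30.4 RPM, so that the pairs went opposite ways.

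UFMylation attaches a ubiquitin-like protein to targets that include the large ribosomal subunit. Of its 10 listed genes 7 were in the table and 1 was tested: Ufc1, the conjugating enzyme, had 11.4 RPM in WT and 11.2 RPM in Ltn1 KO neurons of the SC pair, and 2.74 and 2.74 RPM in those of the TTC pair. The ligase gene Ufl1 had 6, 0, 0 and 2 reads, Cdk5rap3, its adaptor, had 9, 12, 0 and 19 reads, and Ddrgk1, its anchor, had 10, 3, 2 and 23 reads. These 3 lay under the level filter and were left out of the test.

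Proteasome subunits were split, with 7 of 30 lower in both pairs and 9 higher. Psmc1, an ATPase of the base, was past 1.5-fold lower at 13.4 RPM in WT and 5.61 RPM in Ltn1 KO neurons of the SC pair, and 21.2 and 10.7 RPM in those of the TTC pair, whereas Psmd13 and Psmg1, an assembly chaperone with 0 reads in WT TTC, were past it higher. Among chaperones 13 of 40 were lower and 11 higher, near the shares over all transcripts tested (34.9% and 22.6%). Past 1.5-fold lower in both pairs were Pdia3, Pdia4 and Vbp1, of which Pdia3 and Pdia4 form disulfide bonds in the endoplasmic reticulum and Vbp1 is a prefoldin subunit. Pdia4 had 18.6, 7.86, 26.02 and 13.4 RPM. Cct5, of the chaperonin that folds tubulin and actin, was higher at 51.0, 74.8, 35.6 and 56.6 RPM, and Hspa8, the abundant cytosolic chaperone, had 193, 186, 210 and 228 RPM.

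The list for the translocon and membrane insertion also holds other genes of the endoplasmic reticulum, such as Surf4, Marchf6 and Sec11a. Its members went both ways, with 8 of 28 lower and 11 higher in both pairs. Lower past 1.5-fold were Surf4, Marchf6 and Sec11a, and higher were Ssr4 and Emc1. Emc1, of the membrane protein insertase, had 4.29 RPM in WT and 10.1 RPM in Ltn1 KO neurons of the SC pair, and 4.79 and 9.85 RPM in those of the TTC pair. Ssr2 and Ssr3 belong to one complex with Ssr4 and differed in direction, Ssr2 with 54.4, 35.9, 75.3 and 50.3 RPM and Ssr3 with 50.1, 71.5, 55.5 and 74.9 RPM.

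In mitochondrial import and dynamics, 8 of 16 were higher in both pairs and 6 lower. The higher ones include Dnm1l, above, and Mff and Fis1, which are known as its receptors. Mff had 6.68 RPM in WT and 12.3 RPM in Ltn1 KO neurons of the SC pair, and 5.48 and 10.1 RPM in those of the TTC pair, and Fis1 had 22.4, 32.9, 16.4 and 23.8 RPM. For Mff and Fis1 the Ltn1 KO libraries lay above both WT libraries, with unadjusted p of 0.052 and 0.066 in limma. The lower ones include Hspa9, the protease Clpp (15.3, 8.23, 16.4 and 9.03 RPM), the prohibitin Phb2 (13.4, 3.37, 11.6 and 8.75 RPM) and the porin Vdac1 (62.5, 38.9, 54.8 and 42.9 RPM), whereas the prohibitin Phb and the porins Vdac2 and Vdac3 were higher in both pairs. The list's median was 0.19 and turned to -0.01 without the level filter. Subunits of the respiratory chain were lower in both pairs in 7 of 30 and higher in 9.

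At synapses, vesicle and SNARE genes were lower in both pairs in 17 of 33 and higher in 3, with medians of -0.15 in each pair. Single differences were mostly small. Snap25, a SNARE of the plasma membrane, had 156 RPM in WT and 144 RPM in Ltn1 KO neurons of the SC pair, and 190.4 and 159 RPM in those of the TTC pair. Syn3, a synapsin, was past 1.5-fold in both pairs at 10.97, 4.86, 16.4 and 9.30 RPM, and Stx1a, a syntaxin, had 39.1, 25.4, 52.7 and 38.6 RPM. The median of the list was -0.05 with median-of-ratios factors, when the median of all transcripts was above 0.

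Inhibitory synapse genes were low mostly in the SC pair, with medians of -0.70 and -0.16, a difference between the pairs that was not tested. Of 14 tested, 5 were lower in both pairs, 2 higher and 7 opposite. Nlgn2, the adhesion protein of inhibitory synapses, had 16.2 RPM in WT and 3.37 RPM in Ltn1 KO neurons of the SC pair, and 13.0 and 4.92 RPM in those of the TTC pair. Gabrb1, a β subunit of the GABA-A receptor, had 46.3, 13.1, 29.4 and 22.2 RPM. Slc32a1, which fills vesicles with GABA, had 5.72, 2.24, 10.3 and 5.197 RPM. In each of these 3 both Ltn1 KO libraries lay below both WT libraries. The list's median turned to 0.03 without the level filter. Of glutamate receptor and scaffold genes 4 of 11 were lower in both pairs and 2 higher. Of the 4 lower, 3 were calmodulin kinase subunits: Camk2g had 24.8, 10.1, 26.7 and 14.8 RPM, Camk2d had 47.2, 23.9, 51.4 and 36.1 RPM, and Camk2b had 218, 194, 279 and 183 RPM, whereas Camk2a had 36.7, 46.4, 22.6 and 26.8 RPM.

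Tubulins and microtubule-associated proteins were lower in both pairs in 7 of 29 and higher in 9, with Tubb4b past 1.5-fold lower and Dpysl2, a collapsin response mediator at 2.05 to 8.98 RPM, past it higher. Genes of cholesterol synthesis were evenly split, 6 of 16 each way. Fdps, farnesyl diphosphate synthase, was past 1.5-fold higher at 4.77 RPM in WT and 8.60 RPM in Ltn1 KO neurons of the SC pair, and 4.79 and 13.4 RPM in those of the TTC pair. Immediate early genes gave 1 tested transcript, the phosphatase gene Dusp6, at 8.11, 2.24, 6.16 and 3.83 RPM. Of 7 cell cycle genes 1 was lower in both pairs (Cdkn1b) and 3 were higher (Cdkn1a, Ccnd1 and Bub3).

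Markers of glia were lower in the Ltn1 KO library of both pairs in sum. Oligodendrocyte markers summed to 51.5 RPM in WT and 24.3 RPM in Ltn1 KO neurons of the SC pair, and 128 and 61.8 RPM in those of the TTC pair, and 3 of 6 tested were lower in both pairs and 0 higher. Mbp, of myelin, had 9.54 RPM, 0 reads, 15.7 RPM and 10.4 RPM. Astrocyte and radial glia markers summed to 650.2, 556, 744 and 682 RPM, with 6 of 13 lower in both pairs and 1 higher. Apoe, the most abundant, had 264, 212, 289 and 278 RPM. Of the 118 transcripts lower in both pairs 2 were on the lists of other cells, Gfap among them, and of the 43 higher 0 were. Of the 2314 tested, 13 were on the list for astrocytes and radial glia and 6 on that for oligodendrocytes. With the markers of other cells left out of the table, an alternative added after seeing the data, 116 transcripts were lower, 43 higher and 79 opposite of 2295. Whether a share of glia contributed to other values was not tested.

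Neuronal lineage genes had 6 of 17 lower in both pairs and 4 higher, near the shares over all transcripts tested (34.9% and 22.6%). Elavl3, an RNA-binding protein of neurons, was past 1.5-fold lower at 10.97 RPM in WT and 1.87 RPM in Ltn1 KO neurons of the SC pair, and 20.5 and 11.5 RPM in those of the TTC pair. Dcx, of migrating neurons, had 44.8, 61.4, 49.3 and 69.2 RPM, with both Ltn1 KO libraries above both WT libraries.

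Among all 6352 transcripts, tested or not, some had 0 reads in both libraries of one genotype and at least 10 reads in each library of the other. With 0 reads in both Ltn1 KO libraries there were 6, namely Reep3, Alg5, Supt3, Zfp12, Tmem176a and Naaa. Of these 6, 2 passed the level filter, Zfp12 and Naaa. They had 12 to 25 reads in WT SC and 10 to 24 in WT TTC. Zfp12, a zinc finger protein, had 25 and 16 reads in WT, 10.6-fold and 13.4-fold above a floor of 3 reads in the Ltn1 KO library of the same code. Such folds leave out the counting error of the reads above the floor, so they are not lower bounds. Naaa, a lysosomal amidase, had 14 and 24 reads in WT, 5.95-fold and 20.0-fold above that floor.

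In the other direction, 23 of the 6352 had 0 reads in both WT libraries, which were the shallower of each pair. They had 10 to 26 reads in KO SC and 10 to 45 in KO TTC, and 1 of the 23, Polr2c, passed the level filter. Polr2c, a subunit of RNA polymerase II, had 26 and 45 reads in Ltn1 KO, 6.80-fold and 5.99-fold above the same floor in WT. Get4, of the complex that hands tail-anchored proteins to the membrane, had 24 and 20 reads (6.27-fold and 2.66-fold above it). Others were Nf2, Tmod3, Pold2, Nans, Ing4, Psme2, Mcm6 and Rpl21, and 1 whose symbol could not be read. The same pattern was more frequent by code than by genotype, where it was found in 6 and 23 transcripts: 29 had 0 reads in both SC libraries and at least 10 in each TTC library, and 28 had the reverse. In 46 transcripts WT TTC alone had 0 reads while each of the other libraries had at least 10, against 15, 10 and 4 for WT SC, KO SC and KO TTC. Single absences therefore occurred in every library, most often in the shallowest.

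**Figure D5:**
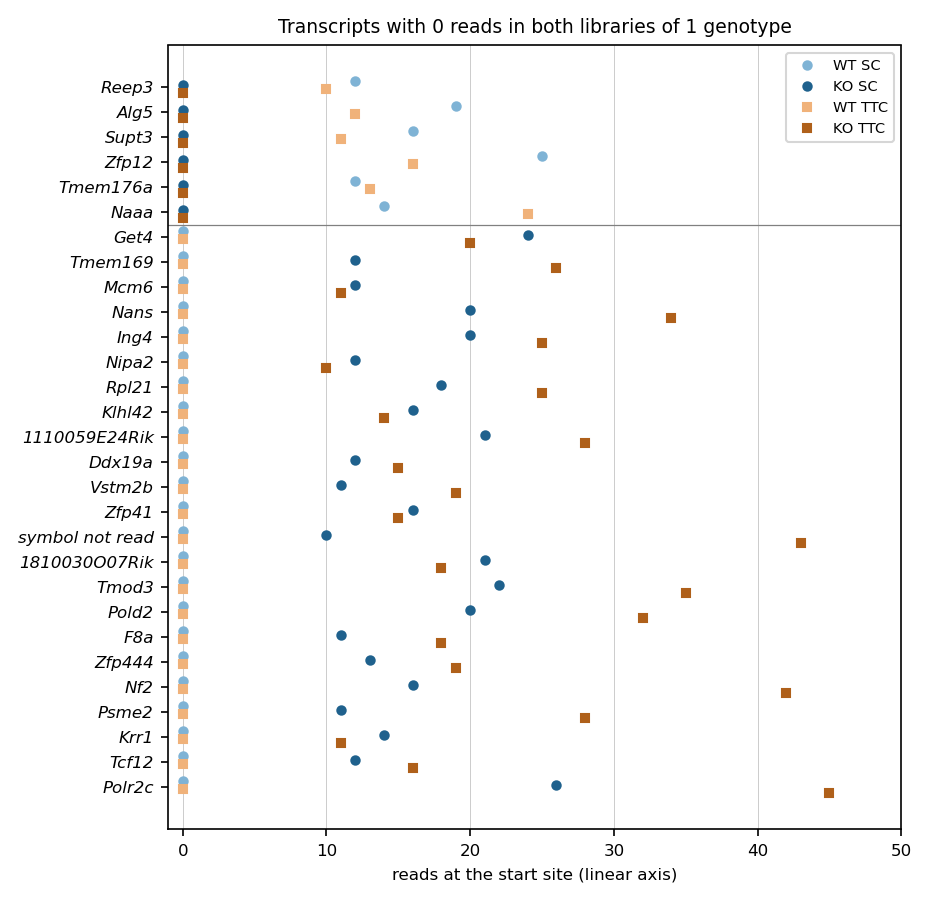
Reads at the start site (horizontal, linear axis) in each library for the 6 transcripts with 0 reads in both Ltn1 KO libraries (above the line) and the 23 with 0 reads in both WT libraries (below it). The genotype that is not at 0 has 10 to 45 reads.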

How the data were processed

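Harringtonine footprints were sequenced from 4 libraries (WT and Ltn1 KO, codes SC and TTC), grouped by their labels. The authors deposited RPM, reads per 1000000 reads of the library, for 6352 transcripts. The submitters' processing notes name Bowtie, SAMtools, bedtools and GRCm38/mm10. Versions, the window counted and the handling of reads with several matches are not given in the sources used here. Divided by the worth of 1 read, 100% of values came out whole to 1e-06, and these whole reads were used for count tests. Symbols were taken by transcript identifier from the study's list for 6349 transcripts, after 38 identifiers broken in the extracted text were mended, and 6197 matched RefSeq. That list's own differences were not used.

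Genotype was tested with limma 3.58.1 (R 4.3.3) on log2(RPM + 1) at a mean of 5 RPM or more, with the code as block, trend and Benjamini-Hochberg adjustment. The RNAi given is shared within a code, so the block pairs libraries by design. A two-sided exact binomial test on reads compared libraries within pairs. Alternatives were other filters, pseudocounts of 0.1 and 5 RPM, scalings, no block, edgeR 4.0.16 and DESeq2 1.42.0 on whole reads. The code was tested on simulated data. Intervals and the floor of 3 reads cover counting error only. Python 3.11.15 was used for the rest.

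The comparison and the 26 gene lists were chosen with earlier results of these data known. Transcripts named are the 12 lower and 12 higher of the largest smaller difference, 12 genes of the study's subject, up to 4 list members past 1.5-fold in both pairs, those with 0 reads in both libraries of a genotype, and those within 5 Mb of Ltn1 past 1.5-fold. Other transcripts were named after their values were seen. The windows printed are mRNA starts from RefSeq, since no genome was used for start codons or coding length. Some transcripts that this rule names are not reported here.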

Additional observations from a re-analysis of the deposited data

Results flagged for a closer look

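In 7 gene lists the median log2 difference of Ltn1 KO from WT had opposite signs in the SC and TTC pairs. The difference between the pairs was not tested. The medians (SC, then TTC) were -0.39 and 0.089 for RQC factors, -0.22 and 0.094 for proteasome subunits, and 0.23 and -0.035 for the translocon and tail-anchor insertion. They were -0.092 and 0.16 for tubulins and microtubule-associated proteins, and 0.64 and -0.082 for cell cycle genes. For cholesterol synthesis (-0.027 and 0.17) and for chaperones (0.0034 and -0.026) at least 1 of the medians was near 0.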

How the results depend on the processing

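Limma's count of 0 at an adjusted p of 0.05 was also obtained with pseudocounts of 0.1 and 5 RPM, with both scalings and without the trend. It was also obtained without the code as block (0 calls) and with edgeR with and without TMM. A filter at 10 RPM, which left 1357 transcripts, gave 6 calls (Ckb, Hspa9, Gde1, Tubb4b and Marchf6 lower, Dnm1l higher, adjusted p 0.026 to 0.049). No filter gave 64 calls among 5955 transcripts, 36 of them with 0 reads in at least 1 library. DESeq2 gave 1 (Tubb4b, adjusted p 0.034). Transcripts lower, higher and opposite in both pairs numbered 62, 15 and 20 at 10 RPM, 289, 262 and 432 without a filter, 56, 12 and 21 with a pseudocount of 5 RPM, and 21, 6 and 11 at 2-fold. Factors by the median of ratios gave 74 higher. The SC pair alone gave 456 lower and 238 higher, and the TTC pair alone 369 and 329. The exact test gave 30 calls in both pairs that were also past 1.5-fold, 245 for SC alone and 258 for TTC alone.

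The median of all transcripts in the SC and TTC pairs was 0 and 0 without a filter, and 0.024 and 0.0084 with median-of-ratios factors, above 0 where the reported medians lay below. With equal sums it was -0.034 in the SC pair. Of the 53 transcripts named by the rule and tested, Rps2 alone changed direction under an alternative, from a mean log2 difference of 0.21 to -0.42 with the SC pair alone. Among those named but under the level filter, Ltn1, Ufl1, Ddrgk1 and Eif4g1 went opposite ways in the pairs. Leaving out 1 library leaves its pair without a partner and the fit without residual degrees of freedom, so each pair was taken alone, as values with no test. Features of start codons and coding length were not run. Depth limits transcripts under 10 RPM most. Beyond counting error, the tests of genotype with the code as block rest on 1 residual degree of freedom, the difference between the pairs. In limma, spread borrowed from other transcripts is added to it.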
